A study of Tupaia belangeri chinensis with 36 samples.

Results

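The entries described here are the piRNAs that were counted in both the testis and the epididymis of the Chinese tree shrew, 6882 of the 59590 entries in the deposited piRNA table. Members were chosen by 2 measured values: an entry was taken if it had at least 10 counts in each of the 3 testis libraries of the reproductive season and a sum of at least 10 counts over the 11 separately measured libraries of the epididymis. Because the rule uses these counts, the testis levels in that season and the epididymal sum are given as description. The animals were sexually mature males of 1.5 to 2 years, with testis, caput (the head of the epididymis) and cauda (its tail) taken either in December 2023, a non-reproductive season (NR), or in April 2024, a reproductive one (R). The 6 groups are named by tissue and season, from TESTIS-NR and TESTIS-R to the caput and cauda groups, each with 3 biological replicates in single-read small RNA sequencing of 50 nt. No group was treated, and neither the origin of the animals nor whether a replicate number marks 1 animal is given in the labels. Season and collection date cannot be told apart. TESTIS-NR 3 and CAPUT-NR 3 were not measured separately in this table, because each equals the mean of the other 2 columns of its group, so these groups have n = 2.

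piRNAs are small RNAs bound by PIWI proteins of the Argonaute family, cut from long single-stranded precursors and known above all from the germ line, where they silence transposons. In the mammalian testis the most abundant ones appear in meiotic spermatocytes and round spermatids. Sperm leave the testis through the caput, where they mature, and are stored in the cauda, so an epididymal sample holds epithelium, smooth muscle and immune cells together with whatever sperm or shed germ cells its lumen contains. In such bulk tissue fewer cells of a type and less RNA per cell cannot be told apart. The sequences and genome positions of the entries were not analysed here, so members are given by name only.

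Library depth differed strongly between tissues. The piRNA table held 148505 to 259893 counts in TESTIS-NR, 4151639 to 6440714 in TESTIS-R, against 9367 to 195386 in the 11 epididymal libraries. The shallowest was CAPUT-R 2 with 9367 counts and the deepest epididymal one CAPUT-R 3 with 195386. A count of 0 therefore allows up to 320 counts per 1000000 (CPM, counts per 1000000 piRNA counts of the library) in CAPUT-R 2, 209 and 225 CPM in CAPUT-NR and 15.4 CPM in CAPUT-R 3. These limits cover counting error only. The tissue labels were set beside miRNA levels in the same libraries. The 10 entries of the epithelial miR-200, miR-141 and miR-429 family took 62715 to 121066 counts per 1000000 miRNA counts in the epididymis and 211 to 3559 in the testis. The 6 entries of the germ-cell miR-34b, miR-34c and miR-449 group took 5713 to 7994 in TESTIS-R, 341 in TESTIS-NR 1 and 324 to 1254 in the epididymis.

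Membership followed abundance in the testis. Of the 23837 entries that met the testis threshold, 16955 missed the epididymal one. Among entries whose mean in TESTIS-R was under 5 CPM, 3.54% were members. The share was 25.5% from 10 to 20 CPM, 63.4% from 20 to 50 CPM, 94.6% from 50 to 100 CPM and 99.8% from 100 CPM upward. Nearly every abundant testis piRNA was thus counted somewhere in the epididymis, and at low levels few were. Only 1162 entries met the epididymal threshold and missed the testis one. In every band of TESTIS-R level up to 100 CPM, members were counted somewhat more often than testis-only entries in both TESTIS-NR libraries. From 20 to 50 CPM, 95.8% of members and 93.9% of testis-only entries had counts in TESTIS-NR 1, and 84.0% and 77.3% in TESTIS-NR 2. Their median TESTIS-NR levels in this band were 27.9 and 21.2 CPM. Levels within a band were not matched.

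Many members lay close to a threshold. There were 568 members with an epididymal sum of exactly 10 and 673 entries left out with a sum of 9. pir-tup-37 and pir-tup-274 were just inside, each with a sum of 10, and pir-tup-371 and pir-tup-871 just outside, each with 9. At the testis threshold 59 members had a lowest count of 10, among them pir-tup-68 and pir-tup-3482. pir-tup-2965 and pir-tup-7191 were among the 47 entries left out with a lowest count of 9. Raising both thresholds to 20 left 3489 entries, 50.7% of the members. One library supplied much of the epididymal sum: without CAPUT-R 3 the rule held for 4348 members (63.2%), and CAPUT-R 3 gave more epididymal counts than all other libraries together for 2477 members (36.0%). Within a single group the epididymal threshold was met by 3834 members in CAPUT-R, 2873 in CAUDA-R, 764 in CAUDA-NR and 39 in CAPUT-NR. There were 2081 members that met it in no group alone.

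Fewer members were counted in the NR epididymis. The rule favoured this, because its epididymal threshold was met within CAPUT-R alone by 3834 members and within CAPUT-NR alone by 39. For CAUDA-R and CAUDA-NR the numbers were 2873 and 764. The shares of members counted are therefore a description, with no share over all entries beside them. In CAUDA-R 83.9%, 51.5% and 77.3% of the 6882 members had at least 1 count. In CAUDA-NR the values were 1.69%, 14.5% and 68.6%, so CAUDA-NR 3 lay within the range of CAUDA-R while the other NR libraries, although deeper than any of CAUDA-R, lay far below it. In the caput 13.8% and 3.34% of members were counted in NR and 59.1%, 22.3% and 95.4% in R. In total 6368 members (92.5%) had counts in both CAPUT-R and CAUDA-R. At the same time 5817 members (84.5%) had 0 counts in CAPUT-NR and 5828 (84.7%) had 0 in both CAUDA-NR 1 and CAUDA-NR 2. The NR testis retained most members, with counts in both TESTIS-NR libraries for 5195 (75.5%) and in neither for 328.

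As a share of the piRNA counts, the members made up 76.9%, 74.0% and 77.2% in TESTIS-R and 70.8% and 66.3% in TESTIS-NR. In the R epididymis the share was as high, with 78.6%, 66.6% and 79.2% in CAPUT-R and 73.7%, 73.7% and 75.4% in CAUDA-R. In the NR season it was 47.9% and 55.0% in the caput and 21.4%, 30.8% and 61.6% in the cauda. The NR and R libraries did not overlap in either segment. The mean share in the cauda was 74.3% ± 0.986 (SD, n = 3) in R and 37.9% ± 21.0 (SD, n = 3) in NR, a log2 difference of 1.11. In the caput the mean was 74.8% ± 7.11 (SD, n = 3) in R and 51.4% ± 5.04 (SD, n = 2) in NR, with a log2 difference of 0.54. The rule used the TESTIS-R counts and an epididymal threshold that 3834 members met in CAPUT-R alone and 39 in CAPUT-NR alone. These season differences are therefore a description. Two-sided exact permutation tests on them gave p 0.1 in each segment (adjusted 0.25), the smallest p possible here. The season differences depend on 1 member: without pir-tup-27559 the log2 differences were 2.66 in the cauda and 0.92 in the caput. Caput and cauda had 65.5% ± 14.0 (SD, n = 5) and 56.1% ± 23.9 (SD, n = 6), a log2 difference of 0.34, or 0.96 without pir-tup-27559. The difference was within the spread, with a two-sided exact permutation p of 0.407 (0.509 after Benjamini-Hochberg adjustment over 5 tests of summed member counts). Within R the caput libraries spanned 66.6% to 79.2% and the cauda libraries 73.7% to 75.4%, and within NR 47.9% to 55.0% and 21.4% to 61.6%, so the segments overlapped in both seasons.

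**Figure D1:**
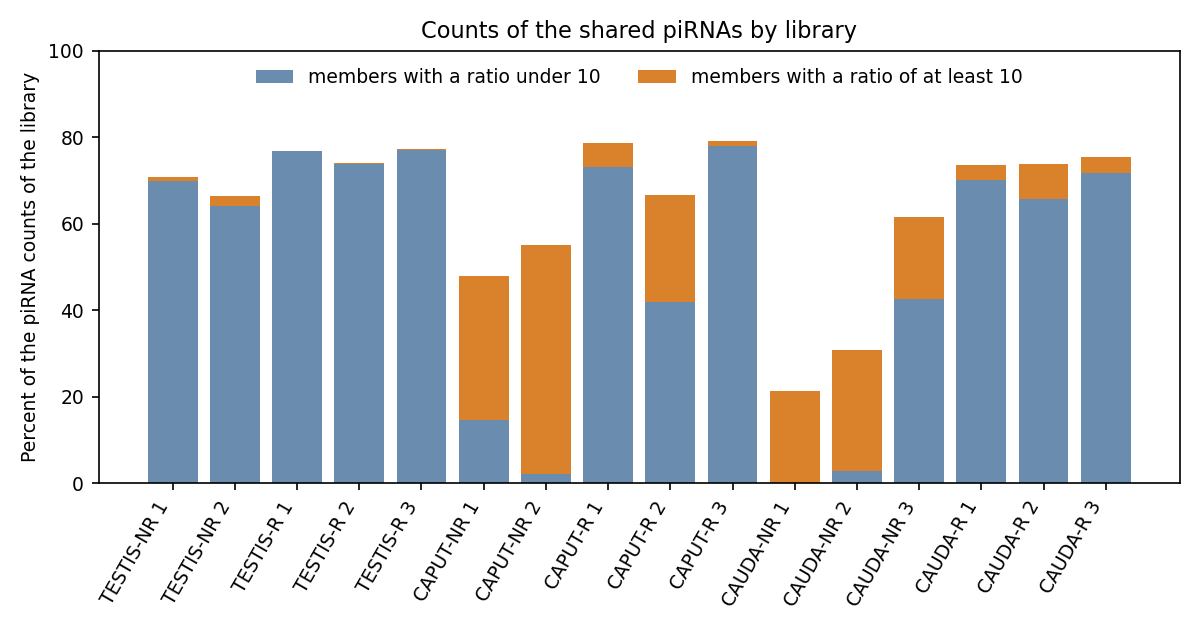
Percent of each library's piRNA counts (y axis) that fell on members, for the 16 measured libraries by tissue, season and replicate number (x axis). Each bar is 1 library, split into the 6829 members whose epididymal level was under 10 times their TESTIS-R level (blue) and the 53 members at or above it (orange). The orange part leads in CAPUT-NR and in CAUDA-NR 1 and 2.

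The ratio of the mean CPM over the 11 epididymal libraries to the mean CPM in TESTIS-R placed the members in unequal groups. The median ratio was 0.701 and the middle of the distribution ran from 0.418 to 1.41 between its quartiles. For 3445 members (50.1%) the ratio was within 2-fold of 1, for 1134 it was above 2 and for 2303 below 0.5. A small group stood far above the rest: 53 members had a ratio of at least 10 and 16 of these a ratio of at least 100, up to 5266 for pir-tup-27559. These cuts were chosen after the values were seen, and since the ratio uses the same counts as the membership rule it is a description.

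**Figure D2:**
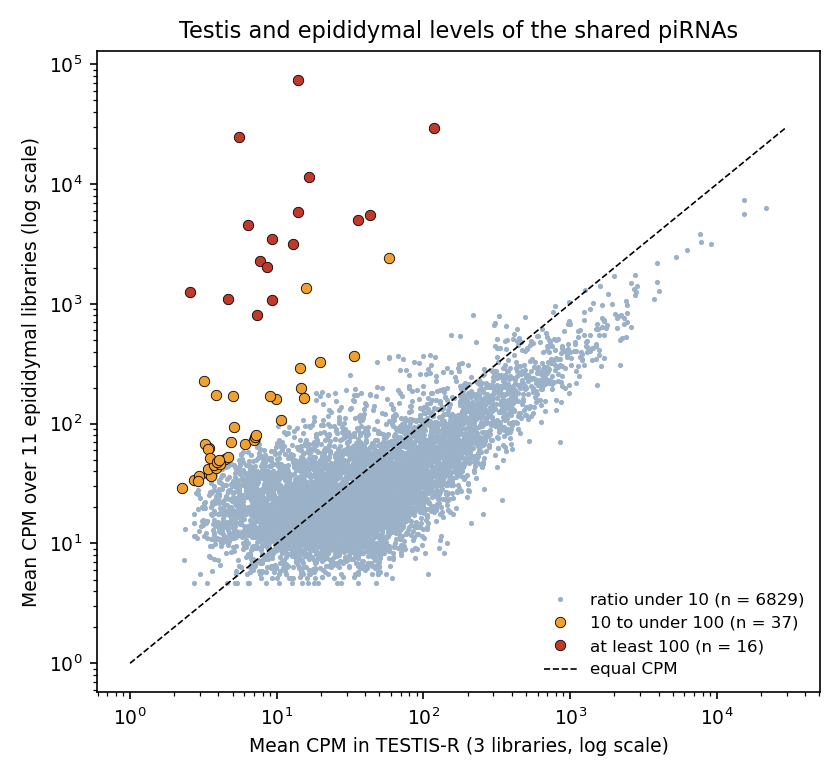
Mean CPM over the 11 epididymal libraries (y axis, log scale) against mean CPM over the 3 TESTIS-R libraries (x axis, log scale), 1 point per member. The dashed line marks equal CPM. The 16 members in red, with ratios of at least 100, lie above the cloud of 6829 blue members and at low to middle testis levels.

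The most abundant testis members were also among the most abundant in the R epididymis. pir-tup-40743 had 27666, 21236 and 16235 CPM in TESTIS-R, 23894, 4911 and 13210 CPM in CAPUT-R, and 6168, 6000 and 7012 CPM in CAUDA-R. In the NR epididymis it had 42 and 10 counts in the caput and 0, 25 and 321 counts in the cauda. The NR cauda was thus split, with its highest count in CAUDA-NR 3 and a limit of 26.2 CPM in CAUDA-NR 1. pir-tup-14078 had 15324 ± 2053 CPM (SD, n = 3) in TESTIS-R, 13286 ± 5317 (SD, n = 3) in CAPUT-R and 10427 ± 2097 (SD, n = 3) in CAUDA-R. pir-tup-12199 had 15237 ± 1149, 9428 ± 3350 and 9412 ± 180 CPM in the same groups (SD, n = 3 each). The other leading members pir-tup-20692, pir-tup-5156, pir-tup-22797, pir-tup-15151 and pir-tup-21240 had means of 5240 to 9182 CPM in TESTIS-R and ratios of 0.346 to 0.50. All 8 were counted in each CAPUT-R and each CAUDA-R library. In CAUDA-NR 1 their counts were 0 for 5 of them and 1, 1 and 5 for the others.

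One of these 8 was uneven in the NR testis. pir-tup-5156 had 6 counts in 1 TESTIS-NR library and 394 in the other, although the first library was the deeper one, and 34102, 50307 and 33549 counts in TESTIS-R. The other 7 were all counted at least 133 times in each TESTIS-NR library.

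At the other end, the members with the lowest ratios were counted in the caput and hardly at all in the cauda. The choice favoured this pattern, because a count adds fewer CPM in the deep CAPUT-R 3 than in any cauda library. It is therefore a description of the entries chosen. pir-tup-4386 had 316, 1095 and 351 counts in TESTIS-R and 12 counts in the epididymis, all in CAPUT-R 3. pir-tup-4752, pir-tup-19987, pir-tup-2958 and pir-tup-1408 had 9, 24, 17 and 6 counts in CAPUT-R 3 and at most 2 in any cauda library. Their ratios were 0.0602 to 0.0691. The deepest epididymal library therefore decided whether these were members.

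The rank order of the members in the epididymis resembled that of the testis to differing degrees. Over the 6882 members, Spearman's rho between a library's CPM and the mean CPM of TESTIS-R was 0.841 and 0.714 in TESTIS-NR and 0.573, 0.303 and 0.774 in CAPUT-R. It was 0.318, 0.322 and 0.370 in CAUDA-R, 0.0812, 0.333 and 0.305 in CAUDA-NR, and 0.294 and 0.173 in CAPUT-NR. Each TESTIS-R library reached 0.908 to 0.951 with the mean of the other 2. These are descriptions across entries of 1 library, which are not independent, and they are limited by sparse counts: CAPUT-R 3, with the highest value in the epididymis, was also the deepest. CAUDA-R 1 had 83822 counts and a rho of 0.318, whereas CAPUT-R 1 had 43525 counts and a rho of 0.573.

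**Figure D3:**
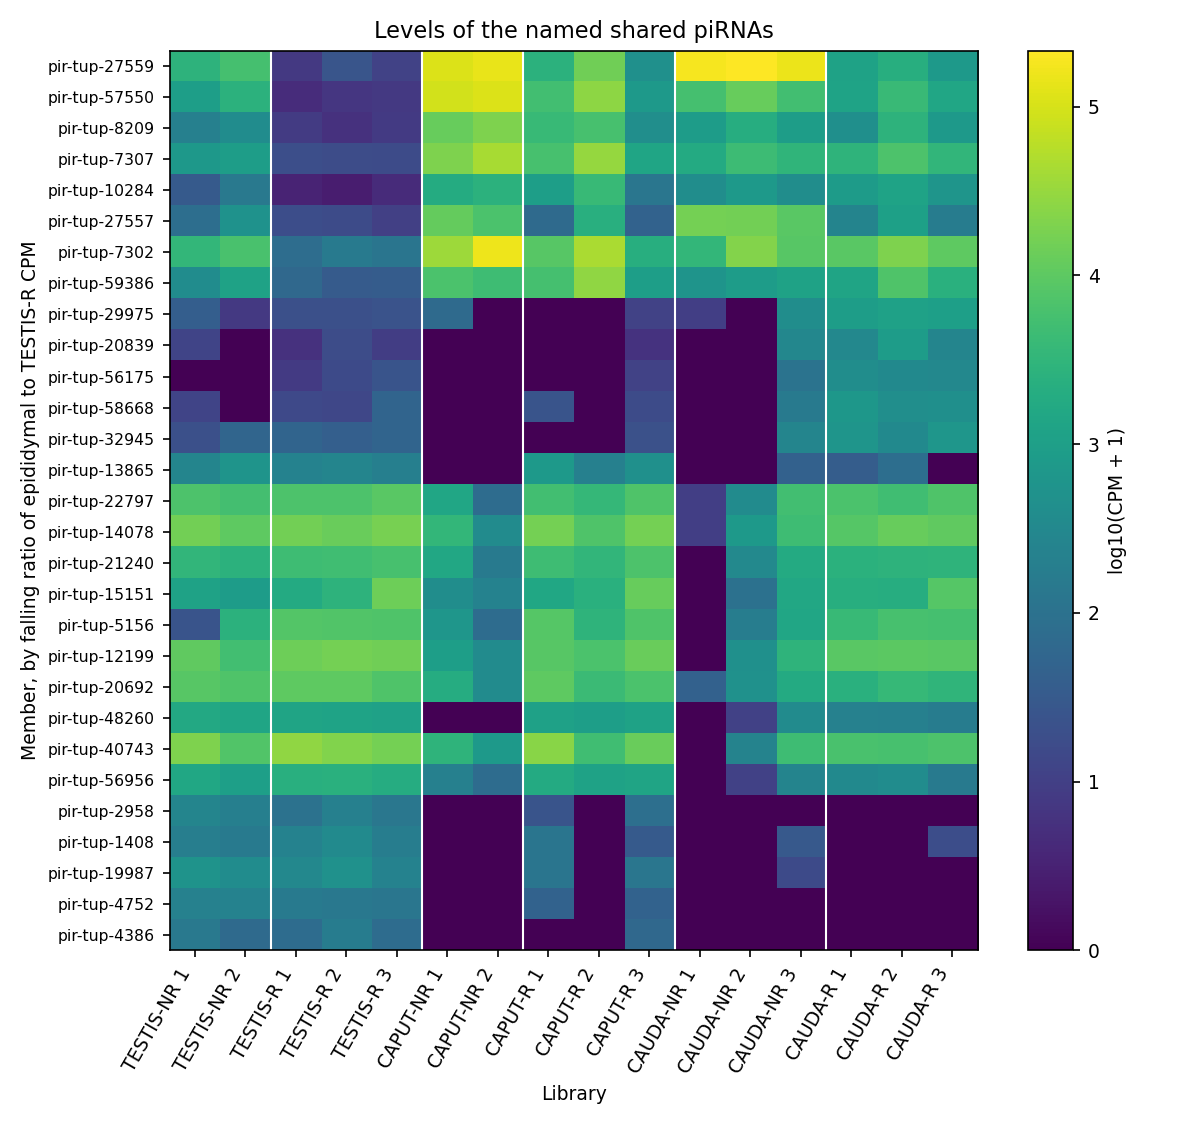
Level of named members as log10(CPM + 1) (colour) in each of the 16 measured libraries (x axis, white lines between groups), with members (y axis) ordered by falling ratio of epididymal to TESTIS-R CPM. The upper 8 rows are bright in CAPUT-NR, the members from pir-tup-22797 to pir-tup-40743 are bright in testis and R epididymis, and the lowest rows are dark in the cauda.

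The 53 members with a ratio of at least 10 took 0.0587% to 0.0684% of the piRNA counts in TESTIS-R and 0.995% and 2.26% in TESTIS-NR. In the NR epididymis they took 33.1% and 52.9% in the caput and 21.3%, 27.9% and 19.0% in the cauda. In R they took 5.39%, 24.6% and 1.15% in the caput and 3.43%, 7.89% and 3.73% in the cauda. The other 6829 members ran the opposite way, with 14.7% and 2.04% in CAPUT-NR and 0.158%, 2.87% and 42.6% in CAUDA-NR, against 42.0% to 78.0% in CAPUT-R and 65.8% to 71.7% in CAUDA-R. The ratio that split the members uses these levels, so both sets of shares are a description. Shares of 1 total are not independent, so levels relative to the miRNA counts of the same library are given below.

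Among the 16 members with ratios of at least 100, 15 were counted in all 11 epididymal libraries, while 29 of all 6882 members were. pir-tup-7302 had 498 and 2096 counts in CAPUT-NR, 388, 421 and 422 in CAPUT-R, 383, 2307 and 592 in CAUDA-NR, and 779, 468 and 588 in CAUDA-R. In the testis it had 899 and 957 counts in NR and 333, 990 and 538 in R. Its counts ran from 333 to 2307 between libraries whose piRNA totals ran from 9367 to 6440714. pir-tup-7307 had between 166 and 584 counts in every epididymal library, and 69 to 181 in every testis library. pir-tup-269 had between 87 and 186 counts in every epididymal library and 69 to 270 in the testis. pir-tup-59386 had 62 to 265 counts in the epididymis and 100 to 254 in the testis. The CPM of such a member therefore tended to be lower in libraries with larger totals. Libraries of like depth still differed: pir-tup-7302 had 34747 and 156886 CPM in CAPUT-NR 1 and 2, with piRNA totals of 14332 and 13360. Of the 16, 13 had a higher CPM in both TESTIS-NR libraries than in all 3 TESTIS-R libraries, as did 760 of all 6882 members, but a high ratio selects for a low TESTIS-R level. For 11 of the 16, another of the 16 lay within 5 entry numbers, as with pir-tup-7302, pir-tup-7305, pir-tup-7306 and pir-tup-7307. Whether such neighbours overlap or share reads was not tested.

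Relative to miRNA counts, the mean level in the cauda was higher in R for the 6829 members and higher in NR for the 53. The 6829 members had 27.7, 236 and 4348 counts per 1000000 miRNA counts in CAUDA-NR and 6138, 2190 and 5337 in CAUDA-R. CAUDA-NR 3 again lay among the R libraries. In the caput they had 187 in CAPUT-NR 1, the 1 NR caput library measured in both tables, and 2160, 477 and 13159 in CAPUT-R. TESTIS-NR 1 had 46376 and the TESTIS-R libraries 991517 to 1613125, so in the R testis member counts were close to or above the miRNA counts. The 53 had 3728, 2288 and 1938 in CAUDA-NR and 300, 263 and 278 in CAUDA-R. The ratio that chose the 53 includes the NR levels and a low TESTIS-R level, so the choice favoured this direction and the values are a description. The 6829 are the rest of the same cut, and the rule was met within CAUDA-R alone by 2873 members and within CAUDA-NR alone by 764. Higher levels in R were thus favoured for the 6829, and their values are a description too. In the caput they had 422 in CAPUT-NR 1 and 159, 280 and 194 in CAPUT-R, against 660 in TESTIS-NR 1 and, in the R testis, 888 to 1290.

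For all members together the miRNA-scaled level was 4835 ± 2104 (SD, n = 3) counts per 1000000 miRNA counts in CAUDA-R and 4188 ± 1918 (SD, n = 3) in CAUDA-NR. The log2 difference was 0.19, with a two-sided exact permutation p of 0.9 (adjusted 0.9). The level of all members adds the 6829 members and the 53. In the caput it was 5476 ± 6866 (SD, n = 3) in R and 609 in the 1 NR library, which allows no test. Caput and cauda over both seasons had 4259 ± 6112 (SD, n = 4) and 4512 ± 1835 (SD, n = 6), with a log2 difference of -1.10 and a two-sided exact permutation p of 0.229 (adjusted 0.381). Without CAPUT-R 3 the log2 difference was -2.03 and the exact permutation p 0.0119, unadjusted. It was the only alternative run with a p under 0.05. These permutations pooled the seasons, which were unevenly held in caput and cauda, so segment and season were mixed. The rule that chose the members also used CAPUT-R 3, so no conclusion is drawn from this p. Within R the caput libraries had 2319, 756 and 13353 and the cauda libraries 6438, 2453 and 5616, so CAPUT-R 3 was above and the other caput libraries below most of the cauda. Transcripts of 657 testis-enriched genes, chosen after the data were seen, took 0.625% of the counts in the RNA-seq library named CAPUT-R 3. They took 0.108% and 0.0296% in CAPUT-R 1 and 2 and 0.0324% to 0.0605% in the cauda. The germ-cell miRNAs differed from this, with 387, 779 and 652 counts per 1000000 miRNA counts in CAPUT-R 1, 2 and 3, highest in CAPUT-R 2. The part of these transcripts and miRNAs in the piRNA result was not tested.

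**Figure D4:**
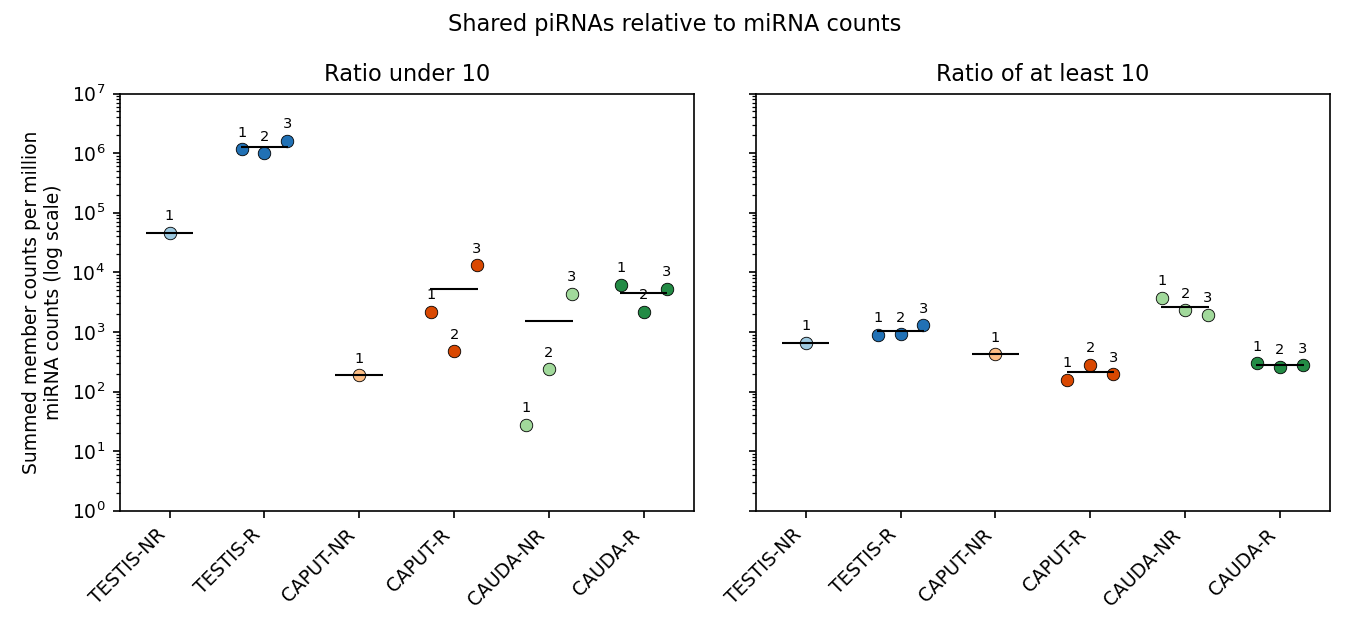
Summed member counts as counts per 1000000 miRNA counts of the same library (y axis, log scale) by group (x axis), for the 6829 members with a ratio under 10 (left) and the 53 members at or above it (right). Points are libraries labelled with their replicate number, and lines are group means. On the left CAUDA-NR 3 lies among the CAUDA-R points, and on the right the 3 CAUDA-NR libraries lie above every other epididymal library.

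Single members were tested between seasons in the cauda with edgeR's quasi-likelihood test on the whole piRNA table, and an entry was called at a Benjamini-Hochberg adjusted p under 0.05. Of the 890 entries that passed the filter on low counts, 743 were members. The epididymal threshold of the rule was met within CAUDA-R alone by 2873 members and within CAUDA-NR alone by 764. The rule thus favoured members higher in R, and their shares called and medians are a description. Higher in R were 0 of the tested members against 0% of all entries tested, and lower in R were 2 members (0.269%) against 8.54% of all entries. At an unadjusted p under 0.05 there were 9 members higher and 3 lower, and DESeq2 called 6 higher and 4 lower. No share over all entries was taken for these 2 sets of counts. The median log2 change of the tested members was 1.35, and 1.13 over all entries tested. That median depends on scaling, with values over all entries of 1.02 to 2.57 under 3 other scalings.

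The stronger of the 2 was pir-tup-27559, the most abundant single entry among members of the NR cauda. Its counts were 20486, 22469 and 9985 counts in CAUDA-NR and 99, 52 and 46 in CAUDA-R, which is 179172, 214221 and 148115 CPM against 1181, 2213 and 781 CPM. Every NR library lay above every R library, so the seasons did not overlap. The change was a log2 of -8.90 ± 2.08 (SE) with an edgeR adjusted p of 0.00182, and it ran from -9.35 to -6.18 under 3 other scalings. On the miRNA scale it had 3138, 1758 and 1512 in CAUDA-NR and 10.3, 7.36 and 5.82 counts per 1000000 miRNA counts in CAUDA-R. The caput went the same way without passing the test, at 1571 and 1866 counts in NR and 114, 142 and 92 in R (log2 -4.65, edgeR adjusted p 0.124). In the testis it had 719 and 851 counts in NR and 28, 161 and 47 in R, at far greater R depth, a log2 change of -7.24. With miRNA totals as the scale, in a fit that held TESTIS-NR 1 alone for NR, the log2 change was -3.07. The difference between the season changes of caput and cauda was not called (log2 3.97, edgeR adjusted p 0.920).

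The other was pir-tup-27557, 2 entry numbers away. It had 1927, 1643 and 612 counts in CAUDA-NR and 21, 25 and 10 in CAUDA-R, again without overlap, with a log2 change of -6.68 ± 1.96 (SE) and an edgeR adjusted p of 0.0161. In the caput it had 169 and 87 counts in NR and 3, 22 and 9 in R. In the testis it had 22 and 79 counts in NR (84.7 and 532 CPM) and 70, 100 and 42 in R. The log2 change was -3.41 (edgeR adjusted p 0.00463). With miRNA totals as the scale the log2 change was 1.96, in a fit with TESTIS-NR 1 alone for NR. That fit left out TESTIS-NR 2, the higher library, so scale and library set changed together. Whether the 2 entries share reads was not tested. Without pir-tup-27559 the other 52 of the 53 members had 426 to 590 counts per 1000000 miRNA counts in CAUDA-NR, against 255 to 290 for CAUDA-R, which is again a description of members chosen by a ratio that includes these levels.

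The calls in the cauda rested on single libraries. Without CAUDA-NR 3, 821 of 1189 tested members (69.0%) were called higher in R against 58.5% of all entries tested, and 4 lower against 13.9%. The median log2 change was 5.65 for members and 5.39 for all. Since the rule favoured members higher in R, the gap between members and all entries is a description. Leaving out CAUDA-R 1 or CAUDA-R 3 left 0 calls, CAUDA-R 2 gave 11, CAUDA-NR 1 gave 4 and CAUDA-NR 2 gave 1. CAUDA-NR 3 differed from the other NR cauda libraries also in germ-cell miRNAs, at 674 counts per 1000000 miRNA counts against 325 and 324. In its RNA-seq library testis-enriched genes were within the range of the other cauda libraries. Their part in the result was not tested.

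In the caput the season test covered 220 entries, of which 140 were members. Here the epididymal threshold of the rule was met within CAPUT-R alone by 3834 members and within CAPUT-NR alone by 39. Values of members beside those of all entries are therefore again a description. edgeR called 0 members higher against 0% of all entries tested and 0 lower against 3.18%. At an unadjusted p under 0.05 there were 17 members higher and 1 lower, and DESeq2 called 48 higher and 1 lower. For these counts, and for the fit without CAPUT-R 2 below, no share over all entries was taken. The median log2 change was 3.11 for members and 2.22 for all entries. The smallest p values belonged to pir-tup-28488, pir-tup-48260 and pir-tup-57029, each with an edgeR adjusted p of 0.116. pir-tup-48260 had 49, 9 and 225 counts in CAPUT-R and 0 and 0 in CAPUT-NR, where 0 counts allow 209 and 225 CPM. Its CAPUT-R level was 1079 ± 103 CPM (SD, n = 3), above both limits. Leaving out CAPUT-R 2, the library with the fewest counts, gave 27 members higher and 13 lower.

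Caput and cauda were first compared over both seasons with season as a covariate. Of 1675 entries tested, 1317 were members, and edgeR called 0 higher and 0 lower in the caput, against 0% and 0% of all entries. At an unadjusted p under 0.05 there were 7 members higher and 104 lower in the caput, and DESeq2 also called 0. Without CAUDA-NR 1 there were 2 members higher and 24 lower. These counts of members have no share over all entries beside them. The smallest p values belonged to pir-tup-41104, pir-tup-46434 and pir-tup-35809 (edgeR adjusted p 0.193 each), all with 0 counts in every caput library. The interaction of season and segment gave 0 calls in either direction among the same 1317 members, against 0% and 0% of all entries, with 5 and 7 at an unadjusted p under 0.05 and 0 by DESeq2. pir-tup-58205, pir-tup-13498 and pir-tup-29625 had the smallest p in it (edgeR adjusted p 0.920 each).

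Within the reproductive season the segments differed in a small set of members. In a comparison of CAPUT-R with CAUDA-R, read on its own after its calls were seen, 730 of 770 tested entries were members. Lower in the caput were 40 members (5.48%) against 5.32% of all entries tested, and higher were 3 (0.411%) against 0.39%. Nearly all tested entries were members, so these shares are the background itself. The medians were near 0, with a log2 difference of -0.01 for members and 0.02 for all entries. DESeq2 called 4 higher and 47 lower, and edgeR with the replicate number as a block 7 higher and 46 lower.

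pir-tup-29975 had the smallest p. It had 77, 27 and 60 counts in CAUDA-R and 0, 0 and 2 in CAPUT-R, or 1029 ± 116 CPM (SD, n = 3) against 3.41 ± 5.91 (SD, n = 3). The log2 difference was -6.79 ± 0.717 (SE), with an edgeR adjusted p of 0.00220. In CAPUT-R 3 a level equal to the lowest CAUDA-R value of 919 CPM would have given far more than the 2 counts seen. In TESTIS-R it was a minor piRNA with 77, 120 and 98 counts, 19.6 ± 1.76 CPM (SD, n = 3). pir-tup-20839 had 26, 21 and 16 counts in CAUDA-R and 0, 0 and 1 in CAPUT-R. pir-tup-56175 had 35, 8 and 18 against 0, 0 and 2, pir-tup-32945 had 50, 8 and 38 against 0, 0 and 4, and pir-tup-58668 had 55, 10 and 26 against 1, 0 and 3. These 4 had an edgeR adjusted p of 0.0180 each. For all 5 the deepest library, CAPUT-R 3, carried most of the few caput counts.

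The 40 members lower in the caput together held 2.77%, 2.55% and 2.37% of the piRNA counts in CAUDA-R and 0.324%, 0.374% and 0.267% in CAPUT-R. They were chosen for this difference. In libraries outside the comparison they held 1.46% of the counts in CAUDA-NR 3 (95% Wilson interval 1.37% to 1.55%, for counting error only), 0.0977% and 0% in CAPUT-NR, and 0.000875% and 0.0143% in CAUDA-NR 1 and 2. In the testis they held 0.191% to 0.240% in R and 0.269% and 0.139% in NR. The CAPUT-R level was therefore near or somewhat above that of the testis, and the 4 cauda libraries rich in members were several times above it. Their median level was 46.3 CPM in TESTIS-R, 42.6 in CAPUT-R, 525 in CAUDA-R and 282 in CAUDA-NR 3. Over all 730 tested members the medians were 322, 299, 345 and 193 CPM. In CAPUT-R 2, 24 of the 40 had 0 counts.

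**Figure D5:**
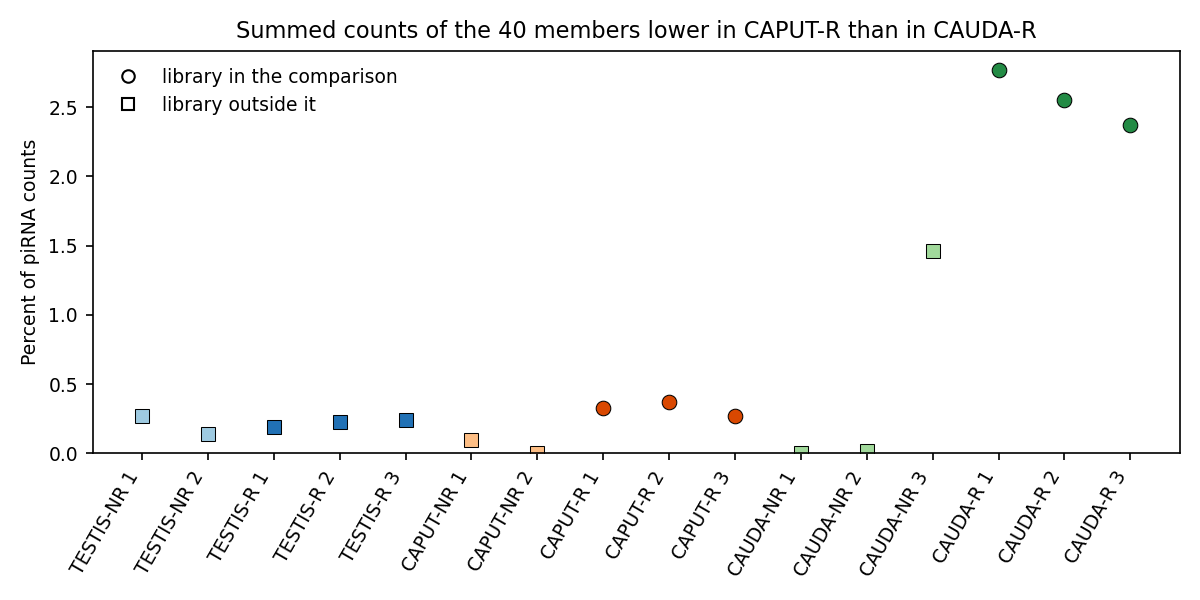
Summed counts of the 40 members called lower in CAPUT-R than in CAUDA-R, as percent of each library's piRNA counts (y axis), in the 16 measured libraries (x axis). Circles are the libraries of the comparison and squares the others. The squares include CAUDA-NR 3 at 1.46%, while the testis squares lie between 0.139% and 0.269%.

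The 3 members higher in the caput had more counts in the testis than the 5 above. pir-tup-48260 had 1079 ± 103 CPM in CAPUT-R and 199 ± 25.4 in CAUDA-R (SD, n = 3 each), with 1206 ± 95.7 in TESTIS-R (SD, n = 3). Its log2 difference was 2.44 with an edgeR adjusted p of 0.0180. pir-tup-56956 had 78, 11 and 249 counts in CAPUT-R and 28, 9 and 9 in CAUDA-R (log2 2.30, edgeR adjusted p 0.0384). pir-tup-13865 had 33, 2 and 93 against 3, 2 and 0 (log2 3.91, edgeR adjusted p 0.0414). In each of the 3 the mean TESTIS-R level was also above the CAUDA-R level.

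The 43 calls rested on few libraries. Leaving out CAPUT-R 1 or CAPUT-R 3 left 0 calls, leaving out CAUDA-R 1 or CAUDA-R 3 left 1, and leaving out CAUDA-R 2 left 12. Without the shallow CAPUT-R 2 there were 166, of which 43 were shared with the full comparison. Scaling to miRNA totals left 1 call. Among all members, tested or not, there were 106 with at least 10 counts in CAUDA-R and 0 in CAPUT-R, and 259 with at least 10 in CAPUT-R and 0 in CAUDA-R.

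The season change of members in the testis is a description, since the rule required counts in TESTIS-R. edgeR called 142 of 6881 tested members higher in R (2.06%) against 0.399% of all entries tested, and 17 lower (0.247%) against 0.519%. The median log2 change was 1.10 for members and 0.92 for all entries. Scaling by library totals gave 44 higher and 28 lower, with a median over all entries of 0.06. With miRNA totals as the scale that median was 5.71. That fit held TESTIS-NR 1 alone for NR, because TESTIS-NR 2 was not measured separately for miRNAs. Scale and library set thus changed together, and its calls are not given. The calls also depended on single libraries: 27, 74 and 19 without TESTIS-R 1, 2 and 3. Leaving out a TESTIS-NR library left 1, so no calls are given for that. No share over all entries was taken for these alternatives. pir-tup-24716 had 1538, 2053 and 1078 counts in TESTIS-R and 0 and 0 in TESTIS-NR, where 0 counts allow 11.5 and 20.2 CPM against 309 ± 66.7 CPM (SD, n = 3) in R. pir-tup-21768, pir-tup-28320 and pir-tup-46410 were also at 0 in both TESTIS-NR libraries, and pir-tup-26098 had 1 and 0 counts there. The lower ones with the smallest p, pir-tup-57550, pir-tup-27559, pir-tup-7302, pir-tup-7307 and pir-tup-8209, all belonged to the 16 with the highest ratios.

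Some members varied between the 3 R testes, and 1 abundant member was highest in number 3 in all 3 tissues. pir-tup-15151 had 1820, 2779 and 14281 CPM in TESTIS-R 1, 2 and 3. It had 1516, 2455 and 12155 CPM in CAPUT-R and 2195, 2128 and 8405 in CAUDA-R. In each tissue number 3 was the highest by at least 3 times. Whether libraries of 1 number come from 1 animal is not given in the labels. By a cut chosen after the data were seen, members at least 4 times higher in 1 TESTIS-R library than in both others numbered 0, 5 and 53 for numbers 1, 2 and 3. Of the 53 for number 3, 43 were highest in CAPUT-R 3 (81.1%, against 52.7% of all members) and 13 in CAUDA-R 3 (24.5%, against 33.0%). Without pir-tup-15151 their summed level was 1194, 549 and 5847 CPM in TESTIS-R, 1470, 1495 and 6444 in CAPUT-R and 9019, 4979 and 5586 in CAUDA-R. This sum was highest in number 3 in the testis and the caput and in number 1 in the cauda.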

How the data were processed

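The authors deposited raw counts per piRNA entry and per miRNA, 1 column per small RNA library, with no normalization in the tables. Of tools, featureCounts and bedtools are listed in the submitters' processing notes. Aligner, genome build and how entries were defined: not given in the sources used here. Columns that equalled the mean of the other 2 of their group at every entry, within 1 count, were left out: TESTIS-NR 3 and CAPUT-NR 3 for piRNAs, TESTIS-NR 2 and CAPUT-NR 2 for miRNAs. Members, lists and cuts were chosen with earlier results of these data known.

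Count tests used edgeR 4.0.16 in R 4.3.3 (quasi-likelihood, TMM scaling, filterByExpr) on the whole piRNA table, with Benjamini-Hochberg adjustment over all entries tested and calls at 0.05. Fits held only the groups compared. The fit was tested on simulated data. CPM used library totals. Summed member counts were compared by two-sided exact permutation tests on log2(value + 0.1), with the seasons pooled for caput against cauda. p-values measure the spread between these samples.

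Named members were the 8 highest in TESTIS-R, the 5 highest in each other group, up to 5 called per direction with groups that do not overlap (or the 3 smallest p where none was called), the 5 highest and lowest ratios, and 2 on each side of each threshold. Alternatives were other scalings (library totals, DESeq2 size factors, miRNA totals), no filter, DESeq2 1.42.0, a replicate block, all libraries in 1 fit, the averaged columns kept, and leaving out each library. Fits with miRNA totals also left out the columns averaged for miRNAs, so TESTIS-NR and CAPUT-NR were held by number 1 alone. CAPUT-R and CAUDA-R libraries of the same number were compared by their deviations from the group means. Their correlations were 0.154, 0.211 and 0.128 over 1223 entries, all above the cut of 0.1. The highest correlations with another number were 0.103, -0.139 and 0.158. Number 3 thus correlated more with another number, and the pairing is uncertain. No other pair of groups checked passed the cut at every number, though CAUDA-NR with CAUDA-R reached 0.142 for number 3. Groups with 2 measured columns have mirrored deviations, so the check says little there. The testis was not checked against the caput or cauda. Chosen after seeing the data were the comparison of segments in R alone and, for sums, pairing CAPUT-R with CAUDA-R, leaving out the leading member or choosing members without CAPUT-R 3. In the deposited RNA-seq counts, testis-enriched genes had a mean of at least 20 CPM in the testis and a median under 1 CPM in the epididymis. Gene identifiers were not matched to symbols, so planned gene markers were not used.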

Additional observations from a re-analysis of the deposited data

How the results depend on the processing

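Counts of called members moved with the processing. Except where a share is given above, only members were counted in these alternatives. Without the share over all entries, the counts describe the fits and not a trait of the members. For the season in the cauda (2 called), no filter gave 0, DESeq2 10, all libraries in 1 fit 43 (41 higher, 2 lower), and leaving out 1 library 0 to 825, the highest without CAUDA-NR 3. Library totals gave 1 higher and 1 lower. For the season in the caput (0 called), DESeq2 gave 49, the averaged columns kept 45, and leaving out 1 library 0 to 40. For caput minus cauda (0 called), the averaged columns kept gave 14, R libraries alone 43, and leaving out 1 library 0 to 26. In R libraries alone (43 called), miRNA totals gave 1, no filter 0, and leaving out 1 library 0 to 166. For the testis (159 called), library totals gave 72, DESeq2 size factors 94, miRNA totals 6783, no filter 59, DESeq2 564, 1 fit of all libraries 24, the averaged columns kept 488, and leaving out 1 library 19 to 668. The interaction gave 0 under its 20 alternatives. With the replicate block the counts were 2 (cauda), 0 (caput), 0 (caput minus cauda), 0 (interaction), 169 (testis) and 53 (R libraries alone, 40 of them shared with the 43). The block moved no total by over 1.5 times. Between the seasons and between the NR segments the numbers did not pass the pairing cut, which is a weak check. The pairing in R was uncertain. These blocked fits are therefore given as values and are no check on the calls. Within the totals, R alone went from 3 higher and 40 lower to 7 and 46, and the testis from 142 and 17 to 159 and 10, with 113 of its 159 calls shared. For the sums, the 3 pairs of CAPUT-R and CAUDA-R libraries of the same number gave a paired log2 difference of 0.01 in share (exact sign-flip permutation p 1.0). Per miRNA count it was -0.64 (exact sign-flip permutation p 0.5, the smallest possible being 0.25). Between the seasons the numbers did not pass the pairing cut, so no block was used for sums there. The log2 difference of the members' share kept its sign under every alternative run, with 0.77 to 1.53 (cauda season), 0.44 to 0.64 (caput season) and 0.10 to 0.46 (caput minus cauda) when 1 library was left out. Without pir-tup-27559, chosen after seeing the data, it was 2.66 (from 1.11), 0.92 (from 0.54) and 0.96 (from 0.34). Relative to miRNA counts, the cauda season difference of 0.19 became -0.07 without CAUDA-R 1 and -0.12 without CAUDA-NR 2, within -0.12 to 0.62. The caput season difference ran from 1.12 to 3.19. Caput minus cauda ran from -2.03 without CAPUT-R 3 (exact permutation p 0.0119, unadjusted and with the seasons pooled) to -0.54. The causes of these changes were not tested. The number of entries tested changed too, for the cauda season from 890 to 1446 without CAUDA-NR 3 and to 25130 with no filter. Depth limits CAPUT-R 2 most, where 0 counts allow 320 CPM, and then the NR caput, with 209 and 225 CPM.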
